A study of Danio rerio with 93 samples.

Results

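Genes of the retina and its photoreceptors were followed in single whole zebrafish embryos exposed to smoke dyes. The members were every row of the deposited gene table whose symbol matched rs1a, prph2lb, crx, otx5, nr2e3, gnat1, gnat2, opn1sw1 or rcvrna, with upper and lower case ignored. The rule found 7 of these 9 symbols in 8 rows of 19913 genes, because the symbol crx had 2 rows. The members were rs1a (ENSDARG00000027236), prph2lb (ENSDARG00000021345), crx (ENSDARG00000011989), CRX (ENSDARG00000043483), NR2E3 (ENSDARG00000045904), GNAT1 (ENSDARG00000044199), GNAT2 (ENSDARG00000042529) and rcvrna (ENSDARG00000052223). Symbols are spelled here as the table spells them, and crx and CRX are 2 separate gene rows. Reads that fit both rows were divided between them by estimation, so the values of crx and CRX carry that uncertainty. The symbols otx5 and opn1sw1 were not matched. Some rows carry symbols in capitals that may be those of a human counterpart. A gene without a matched symbol may therefore stand under another one, and CRX may be a paralogue such as otx5, which was not checked.

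A vertebrate photoreceptor is built in steps. Homeobox proteins of the Crx and Otx family switch on photoreceptor genes in cells leaving the cell cycle, and Nr2e3 then favours the rod programme over the cone programme, as known from the mouse. In a working photoreceptor an opsin catches light, transducin carries the signal to a phosphodiesterase, and recoverin adjusts how long the opsin stays active. Peripherin proteins shape the rims of the outer segment discs, and retinoschisin is secreted to hold the retinal layers together. In zebrafish the neural retina is still differentiating at the stage sampled, opsin transcription is only beginning, and the pineal organ holds photoreceptors of its own.

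The study compared embryos exposed to Solvent Violet 47, Solvent Yellow 33, Disperse Red 9, Disperse Blue 14 or Solvent Red 169, dyes for coloured smokes, with unexposed embryos of the same dye series. All 93 embryos were of the SPF 5-D strain, had their chorions removed, were kept singly in wells adjusted to 0.64% DMSO, and were taken whole at 48 hours post fertilization (hpf) for poly-A RNA sequencing. From the highest concentration down, the treatment groups were Solvent Violet 47 at 40, 31.5, 23, 17.5 and 12 μM, Solvent Yellow 33 at 13.5, 12, 10.5, 9 and 7.5 μM, Disperse Red 9 at 55, 45, 35, 25 and 10 μM, Disperse Blue 14 at 314, 261.5, 209, 171 and 133 μM, and Solvent Red 169 at 50, 35.6, 11.2, 5 and 1 μM. Every treatment group had 3 embryos. Each dye had 4 control embryos, except Solvent Violet 47, which had 2 (replicates 3 and 4). Each replicate was a single embryo as labelled, and clutch was not given, so p-values measure the spread between these embryos. In RNA from a whole embryo, fewer photoreceptors and less RNA per photoreceptor cannot be told apart.

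Total counts per embryo ran from 9171265 to 48188027, with a median of 32290121, and the exposed Solvent Violet 47 embryos had at least 22423359. Levels are counts scaled to a common library size (CPM) and are not divided by gene length, so levels are compared only within a gene. Some libraries stood apart before any test was made. In Solvent Red 169 controls 1 and 2, crx was at 1.31 and 0.808 CPM against 259 and 109 CPM in controls 3 and 4. Those 2 control embryos were also low in CRX (1.1 and 1.73 CPM), NR2E3 (1.51 and 1.87 CPM), rs1a (0.803 and 0.369 CPM) and rcvrna (1.71 and 1.71 CPM). GNAT2 at 3.82 and 3.49 CPM was not low in them, so these controls went against the other 16 for most members but not for all. Disperse Blue 14 control 1 was low in rs1a (0.875 CPM), GNAT1 (1.00 CPM) and rcvrna (2.69 CPM). Solvent Yellow 33 at 12 μM held 1 embryo, replicate 3, with only 9171265 counts and a summed lens gene level of 12210 CPM. The second index read of the libraries also followed the design: in every comparison in which a member was called, 0 of the 3 exposed embryos shared a second index with a control of the dye, so index and concentration cannot be told apart there.

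The first question was which treatment groups differed from their own control. A member was called when the fold change was over 1.5 and the adjusted p was under 0.05 (edgeR quasi-likelihood test, Benjamini-Hochberg over all genes tested). Pairs of a member and a concentration were called lower 14 times in Solvent Violet 47, 9 in Disperse Red 9, 5 in Solvent Yellow 33, 2 in Disperse Blue 14 and 0 in Solvent Red 169, and higher 0 times. Shares of all genes tested that met the same rule are given beside each count by that rule as the background, in the order of rising concentration. Counts by unadjusted p, by DESeq2 or with embryos left out have no such share beside them, so they cannot be read as particular to the members. In Solvent Violet 47, 0, 0, 0, 7 and 7 of 8 members were called lower, where 0%, 0%, 0%, 4.04% and 8.91% of all genes were, and 0%, 0%, 0%, 2.22% and 6.05% of all genes were called higher. At 12, 17.5 and 23 μM of this dye, with 0 calls, the members at an unadjusted p under 0.05 numbered 0, 4 and 4, and DESeq2 called 0, 0 and 3. In Disperse Red 9, 0, 0, 0, 4 and 5 of 8 members were called lower (0%, 0%, 0.0728%, 0.778% and 0.492% of all genes lower, and 0%, 0%, 0.0224%, 0.632% and 0.19% higher). At 10, 25 and 35 μM, 0, 5 and 5 members had an unadjusted p under 0.05 and DESeq2 called 0, 1 and 2. In Solvent Yellow 33, 0, 0, 0, 1 and 4 of 8 were called lower (0.0967%, 0.432%, 0.734%, 0.7% and 1.62% of all genes lower, and 0.0853%, 0.239%, 0.341%, 0.381% and 0.882% higher). At 7.5, 9 and 10.5 μM, 2, 6 and 6 members had such a p and DESeq2 called 0, 3 and 3. In Disperse Blue 14, 0, 0, 0, 0 and 2 of 8 were called lower (0.0447%, 0.246%, 0.0447%, 0.291% and 8% of all genes lower, and 0.0559%, 0.52%, 0.0895%, 0.777% and 7.66% higher). From 133 to 261.5 μM, 3 members at each concentration had such a p and DESeq2 called 0, 1, 1 and 1. In Solvent Red 169, 0 of 8 were called at each concentration (0.93%, 1.66%, 0%, 0% and 0.734% of all genes lower, and 2.8%, 4.6%, 0%, 0% and 2.51% higher), where 0, 0, 1, 1 and 1 members had such a p and DESeq2 called 0. Over all genes and all concentrations of a dye together, DESeq2 called 5428 pairs of a gene and a concentration in Solvent Violet 47. It called 1838 in Disperse Red 9, 3149 in Solvent Yellow 33, 5735 in Disperse Blue 14 and 7859 in Solvent Red 169. By the edgeR rule the shares of members were thus many times the background in some groups. These were Disperse Red 9 at 45 and 55 μM, Solvent Yellow 33 at 13.5 μM and both high Solvent Violet 47 groups. The calls at 12 μM Solvent Yellow 33 and at 314 μM Disperse Blue 14 stood on 1 and 2 genes. The members were chosen with earlier results of these data known, so these shares describe the members and are no independent test of them.

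**Figure D1:**
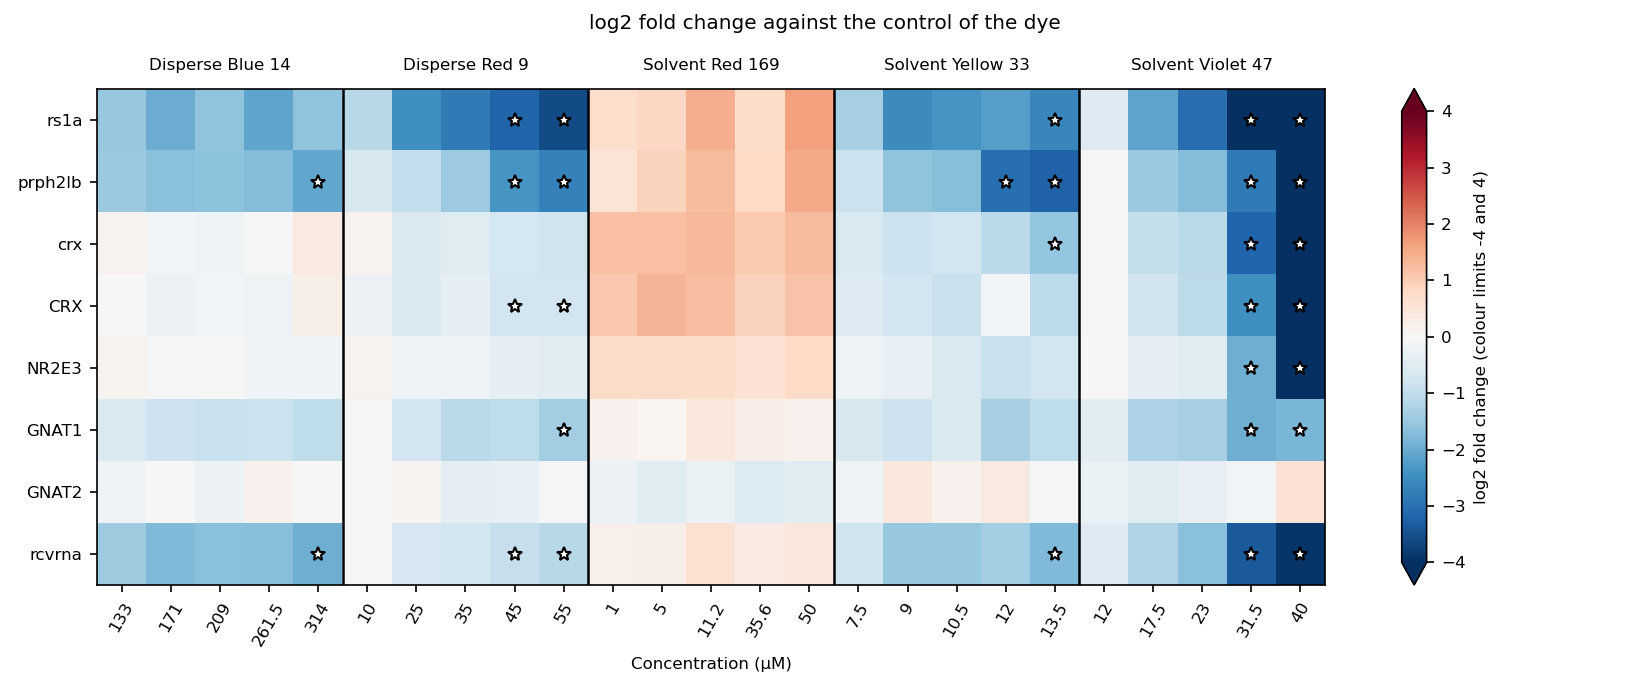
Heat map of the log2 fold change of each of the 8 members (rows) in each of the 25 treatment groups (columns, concentration in μM) against the control of the same dye, with colour limits at 4 in either direction. Stars mark called pairs, which fill 14 of the 40 Solvent Violet 47 squares and 0 of the 40 Solvent Red 169 squares.

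Solvent Violet 47 held the most calls, and the transcription factors were among them. The crx gene, the cone-rod homeobox factor, was at 309 and 315 CPM in the controls. It was at 406, 170 and 305 CPM at 12 μM, at 242, 141 and 107 CPM at 17.5 μM, and at 205, 169 and 74.8 CPM at 23 μM. It was at 61.6, 34.1 and 9.87 CPM at 31.5 μM and at 10.7, 6.15 and 2.33 CPM at 40 μM. Exposed embryos overlapped the controls only at 12 μM, and 2 of the 3 embryos at 40 μM lay below every embryo at 31.5 μM. The log2 fold change of crx was -3.16 ± 0.68 (SE) at 31.5 μM (adjusted p = 0.0163) and -5.65 ± 0.75 at 40 μM (adjusted p = 0.000554).

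CRX and NR2E3 moved with crx. CRX was at 66.5 and 64.8 CPM in the controls, at 20.1, 10.0 and 5.97 CPM at 31.5 μM, and at 5.46, 1.99 and 0.814 CPM at 40 μM. NR2E3, the nuclear receptor of the rod programme, was at 51.9 and 51.5 CPM in the controls, at 23.7, 11.1 and 5.77 CPM at 31.5 μM, and at 5.82, 2.74 and 1.41 CPM at 40 μM. Neither gene overlapped its controls in these groups. The log2 fold changes at 40 μM were -4.61 ± 0.60 for CRX (adjusted p = 0.000463) and -3.99 ± 0.52 for NR2E3 (adjusted p = 0.000501). At 23 μM CRX gave -1.04 ± 0.54 and NR2E3 -0.48 ± 0.49, neither of them called (adjusted p = 0.587 and 0.809).

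Of the genes of the mature photoreceptor, recoverin and rod transducin fell. The rcvrna gene encodes recoverin, the calcium sensor that restrains the opsin kinase. It was at 17.3 and 21.2 CPM in the controls, at 2.54, 1.60 and 1.49 CPM at 31.5 μM and at 1.47, 1.01 and 1.38 CPM at 40 μM, so the groups were far apart. Its log2 fold changes were -3.37 ± 0.41 (adjusted p = 0.00127) and -3.93 ± 0.42 (adjusted p = 0.000204). GNAT1, the alpha subunit of rod transducin, was at 4.39 and 6.73 CPM in the controls, at 1.58, 1.13 and 1.63 CPM at 31.5 μM and at 0.960, 2.06 and 1.79 CPM at 40 μM. It fell by 1.95 ± 0.37 and by 1.83 ± 0.37 on the log2 scale (adjusted p = 0.00934 and 0.00401), so its fitted drop was no larger at 40 μM than at 31.5 μM.

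GNAT2, the alpha subunit of cone transducin, was not called at any concentration of Solvent Violet 47. It was at 3.06 and 2.90 CPM in the controls and at 2.49, 5.44 and 5.67 CPM at 40 μM, with 2 exposed embryos above both controls and 1 below.

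The structural genes fell as well. The rs1a gene, which encodes retinoschisin, was at 20.9 and 29.3 CPM in the Solvent Violet 47 controls. It was at 33.7, 8.67 and 10.4 CPM at 12 μM, at 9.33, 4.97 and 3.47 CPM at 17.5 μM, and at 5.36, 3.0 and 0.892 CPM at 23 μM. It was at 1.49, 0.503 and 0.305 CPM at 31.5 μM and at 0.510, 0.976 and 0.434 CPM at 40 μM. From 17.5 μM upward every exposed embryo lay below both controls, and the 31.5 and 40 μM groups overlapped each other. The log2 fold changes were -5.03 ± 0.80 at 31.5 μM (adjusted p = 0.00458) and -5.35 ± 0.81 at 40 μM (adjusted p = 9e-04).

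The gene prph2lb, named as a peripherin 2-like gene, was at 2.41 and 2.94 CPM in the same controls. It was at 0.448, 0.314 and 0.373 CPM at 31.5 μM and had 0 counts in all 3 embryos at 40 μM. That is at least 28.2-fold lower than control with a floor of 3 counts per library (adjusted p = 0.000415), and the log2 fold change at 31.5 μM was -2.82 ± 0.64 (adjusted p = 0.0239).

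**Figure D2:**
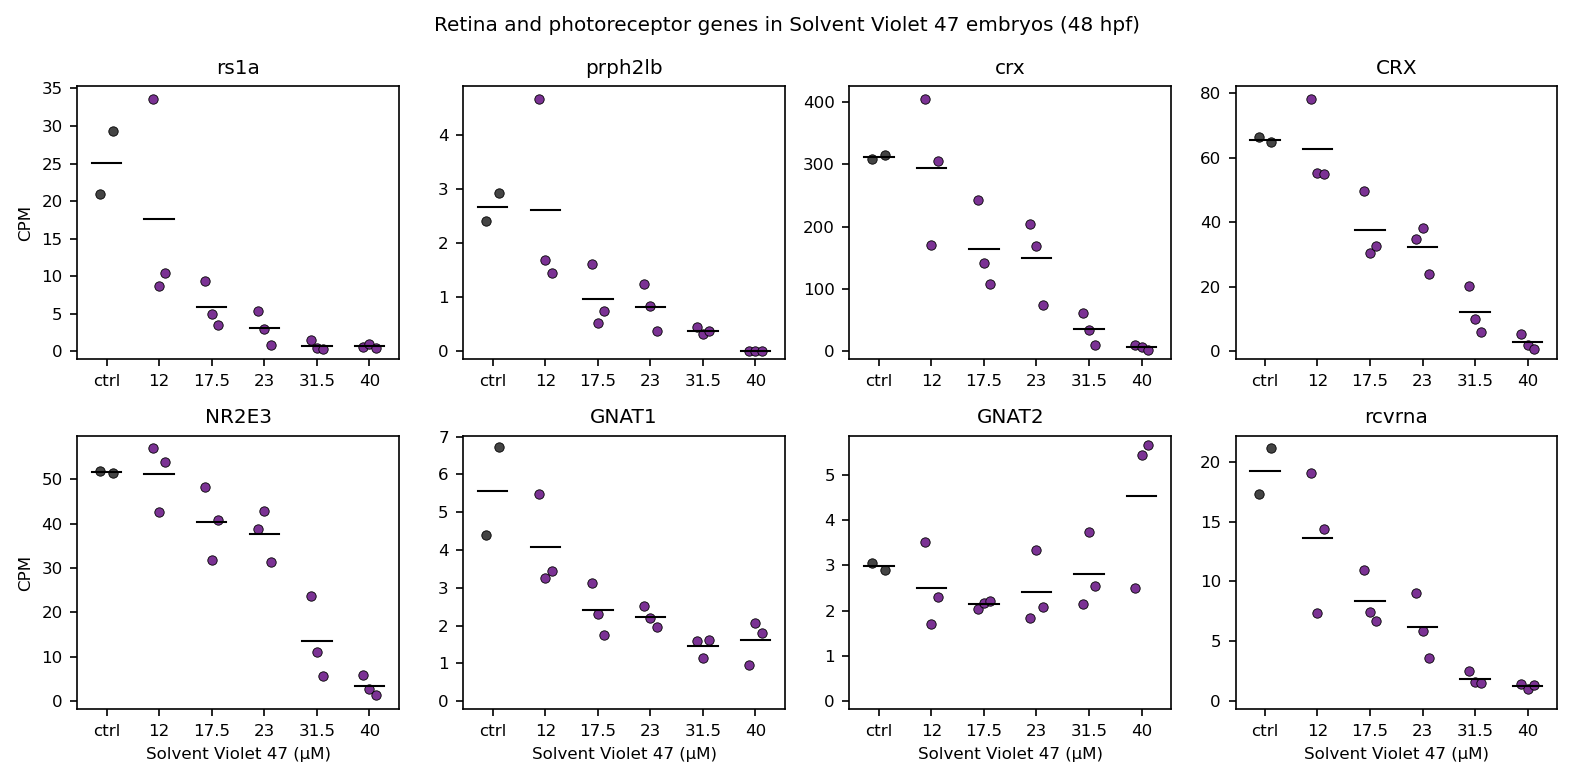
Levels of the 8 members in each Solvent Violet 47 embryo (points, CPM on linear axes that start near 0 and differ by gene) against concentration in μM, with 2 controls and 3 embryos per treatment group and a bar at each group mean. The crx points go from 309 and 315 CPM in the controls to between 2.33 and 10.7 CPM at 40 μM, whereas GNAT2 lies between 1.70 and 5.67 CPM in every embryo.

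The Solvent Violet 47 groups at 17.5 and 23 μM separated from the controls without being called. At 17.5 μM every exposed embryo was below both controls for 8 of 8 members, where 20.4% of all genes were so separated, and at 23 μM for 7 of 8 members (20.5%), with 0 at 12 μM (5.51%) and 7 at both 31.5 μM (23.6%) and 40 μM (22.3%). At 17.5 and 23 μM the median log2 fold changes over the members were -1.08 and -1.21, against all-gene medians of 0.02 and 0.01. All 3 embryos at 17.5 μM and 2 of 3 at 23 μM shared a second index with a control, unlike those at 31.5 and 40 μM. Over the members the median was -2.64 at 31.5 μM and -4.30 at 40 μM, the latter also when the member at 0 counts was placed at its bound. With 2 controls, 1 library mattered: without control 4 the dye gave 7 called pairs rather than 14. The calls of crx, CRX, NR2E3, rs1a, prph2lb and rcvrna at 40 μM held in each of 17 fits that left out 1 embryo, whereas without control 4 GNAT1 had an adjusted p of 0.0784. At 31.5 μM only rcvrna stayed called without control 4 (adjusted p = 0.0234). The other members called there then had an adjusted p from 0.0568 (rs1a) to 0.19 (NR2E3). No call at 31.5 μM held with the 18 controls of all dyes as 1 group.

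In Solvent Yellow 33 the structural genes, recoverin and crx were lower. The prph2lb gene was at 2.20, 2.45, 2.86 and 1.21 CPM in the controls, at 0.222, 0 and 0.401 CPM at 12 μM and at 0.312, 0.158 and 0.218 CPM at 13.5 μM. All 6 of these exposed embryos lay below all 4 controls, and the 0 at 12 μM was in replicate 3, the embryo with only 9171265 counts. The gene fell by 3.03 ± 0.59 on the log2 scale at 12 μM (adjusted p = 0.0196) and fell by 3.23 ± 0.56 at 13.5 μM (adjusted p = 0.00601). Its call at 12 μM held in 16 of 19 fits that left out 1 embryo and in 5 of 8 other alternative fits. The rs1a gene was at 15.2, 16.4, 20.1 and 12.6 CPM in the controls and at 2.49, 0.792 and 4.6 CPM at 13.5 μM, again without overlap. It gave -2.61 ± 0.65 (adjusted p = 0.0431).

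Recoverin transcripts in this dye were at 13.2, 11.3, 13.5 and 11.2 CPM in the controls and at 4.57, 1.74 and 4.57 CPM at 13.5 μM. Those groups did not overlap, and rcvrna gave -1.76 ± 0.38 (adjusted p = 0.0198). The crx gene was at 288, 270, 294 and 209 CPM in the controls and at 128, 70.6 and 74.6 CPM at 13.5 μM, which gave -1.54 ± 0.37 (adjusted p = 0.0369). This crx call held in 9 of 19 fits that left out 1 embryo. CRX, NR2E3 and GNAT1 at 13.5 μM lay below every control in each exposed embryo but were not called.

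Separation from the controls was seen at each concentration of Solvent Yellow 33. The members whose exposed embryos all lay below all 4 controls numbered 6, 7, 5, 6 and 7 of 8 from 7.5 to 13.5 μM, where the shares of all genes were 12.6%, 11.4%, 9.31%, 8.23% and 16.8%. At 9 and 10.5 μM rcvrna gave -1.52 ± 0.37 and -1.51 ± 0.37 (adjusted p = 0.0825 and 0.0676). The shallow 12 μM embryo had CRX at 118 CPM, above all controls, but NR2E3 at 14.4 CPM and GNAT1 at 0.261 CPM, below all of them. According to its methods, the study removed an embryo from this treatment group after quality control without naming it, and all labelled embryos were used here. Without the shallow embryo 23 pairs were called in this dye rather than 5, and without control 1 or control 3 only 1 was. No share of all genes stands beside these counts, so they cannot be read as particular to the members. The call of rs1a at 13.5 μM held in 4 of 19 fits that left out 1 embryo.

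In Disperse Red 9 the calls again held rs1a, prph2lb and rcvrna. The rs1a gene was at 17.3, 20.4, 14.4 and 24.1 CPM in the controls, at 2.08, 2.08 and 2.32 CPM at 45 μM, and at 1.30, 3.04 and 0.594 CPM at 55 μM. No exposed embryo came near a control in these groups, and rs1a fell by 3.19 ± 0.61 at 45 μM (adjusted p = 0.0214) and fell by 3.57 ± 0.62 at 55 μM (adjusted p = 0.019). The prph2lb gene was at 1.81, 1.85, 2.71 and 1.86 CPM in the controls and at 0.541, 0.296 and 0.125 CPM at 55 μM, giving -2.71 ± 0.52 (adjusted p = 0.0307). For rcvrna the controls were at 12.9, 13.3, 10.3 and 9.26 CPM and the 55 μM embryos at 6.09, 5.71 and 4.63 CPM, giving -1.12 ± 0.22 (adjusted p = 0.0312). The rcvrna call at 55 μM held in 13 of 19 fits that left out 1 embryo, and that at 45 μM in 4.

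Transcription factors moved less in this dye than the structural genes did, as fitted values. CRX was at 43.7, 46.9, 42.2 and 45.0 CPM in the controls and at 27.9, 30.7 and 23.3 CPM at 55 μM, and fell by 0.76 ± 0.16 on the log2 scale at both 45 and 55 μM (adjusted p = 0.032 and 0.044). These calls held in 10 and 6 of 19 fits that left out 1 embryo. The crx gene was at 154, 169, 201 and 342 CPM in the controls and at 123, 151 and 112 CPM at 55 μM, where every exposed embryo was below every control by a narrow margin, and it was not called. GNAT1 was at 4.33, 3.84, 3.71 and 5.31 CPM in the controls and at 2.03, 1.31 and 1.81 CPM at 55 μM, and gave -1.38 ± 0.26 (adjusted p = 0.0307).

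Lower Disperse Red 9 concentrations separated some members without a call. At 10, 25 and 35 μM the members with all exposed embryos below all controls numbered 0, 5 and 5 of 8, where 6.84%, 2.23% and 7.1% of all genes were separated. At 45 and 55 μM they numbered 5 and 6, with 9.35% and 12.4% of all genes. At 25 μM, where all 3 exposed embryos shared a second index with a control, rs1a was at 4.09, 4.26 and 2.29 CPM (log2 fold change -2.46 ± 0.59, adjusted p = 0.23). Without control 2 or control 3 of this dye 1 pair was called rather than 9.

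Disperse Blue 14 gave 2 calls, both at 314 μM, and each comparison held control 1, which was low in rs1a, GNAT1 and rcvrna. The rcvrna gene was at 2.69, 24.5, 29.5 and 22.5 CPM in the controls and at 5.96, 4.06 and 4.80 CPM at 314 μM. The exposed embryos lay above control 1 and below the other 3, and the log2 fold change was -1.96 ± 0.48 (adjusted p = 0.0226). The prph2lb gene was at 0.406, 2.21, 3.60 and 2.05 CPM in the controls and at 0.205, 0.35 and 0.872 CPM at 314 μM, which overlapped through the same control (-2.09 ± 0.66, adjusted p = 0.0418).

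Without Disperse Blue 14 control 1, 18 pairs were called in this dye rather than 2, and without replicate 3 or replicate 4 at 314 μM 0 were. These counts have no share of all genes beside them, so the change cannot be read as particular to the members. With all controls, rs1a was at 0.875, 36.4, 37.3 and 28.1 CPM in the controls and at 6.49, 8.58 and 9.34 CPM at 314 μM, below 3 controls and above 1. The transcription factors did not follow: crx was at 59.3, 107, 364 and 258 CPM in the controls and at 230, 241 and 270 CPM at 314 μM. NR2E3 and CRX also overlapped their controls at 314 μM.

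In Solvent Red 169 most members had fitted values above 0, in comparisons that hold the low controls 1 and 2. At 50 μM rs1a was at 7.72, 10.8 and 11.1 CPM against 0.803, 0.369, 7.41 and 4.10 CPM in the controls, and prph2lb was at 1.47, 1.40 and 1.78 CPM against 0, 0.115, 1.34 and 0.714 CPM. These were the 2 members of 8 with all exposed embryos above all controls (6.18% of all genes). On the log2 scale rs1a gave 1.64 ± 0.63 (adjusted p = 0.106) and prph2lb 1.51 ± 0.81 (adjusted p = 0.205). Without controls 1 and 2 the same values were 0.78 for rs1a and 0.61 for prph2lb, and against the 16 other controls of all dyes pooled they were -0.95 and -0.40.

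The crx gene in this dye was at 304, 207 and 149 CPM at 50 μM, with a log2 fold change of 1.25 ± 1.05 with all controls (adjusted p = 0.414) and 0.26 without controls 1 and 2. With or without controls 1 and 2, 0 members were called in Solvent Red 169. Without them only 2 pairs of a gene and a concentration were called over all genes, so the 0 there says little about the members. Without control 3, rs1a at 2.45 (adjusted p = 0.0103) and prph2lb at 2.39 (adjusted p = 0.0389) were called higher at 50 μM. In that fit 6 pairs were called in the dye, with no share of all genes beside them.

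**Figure D3:**
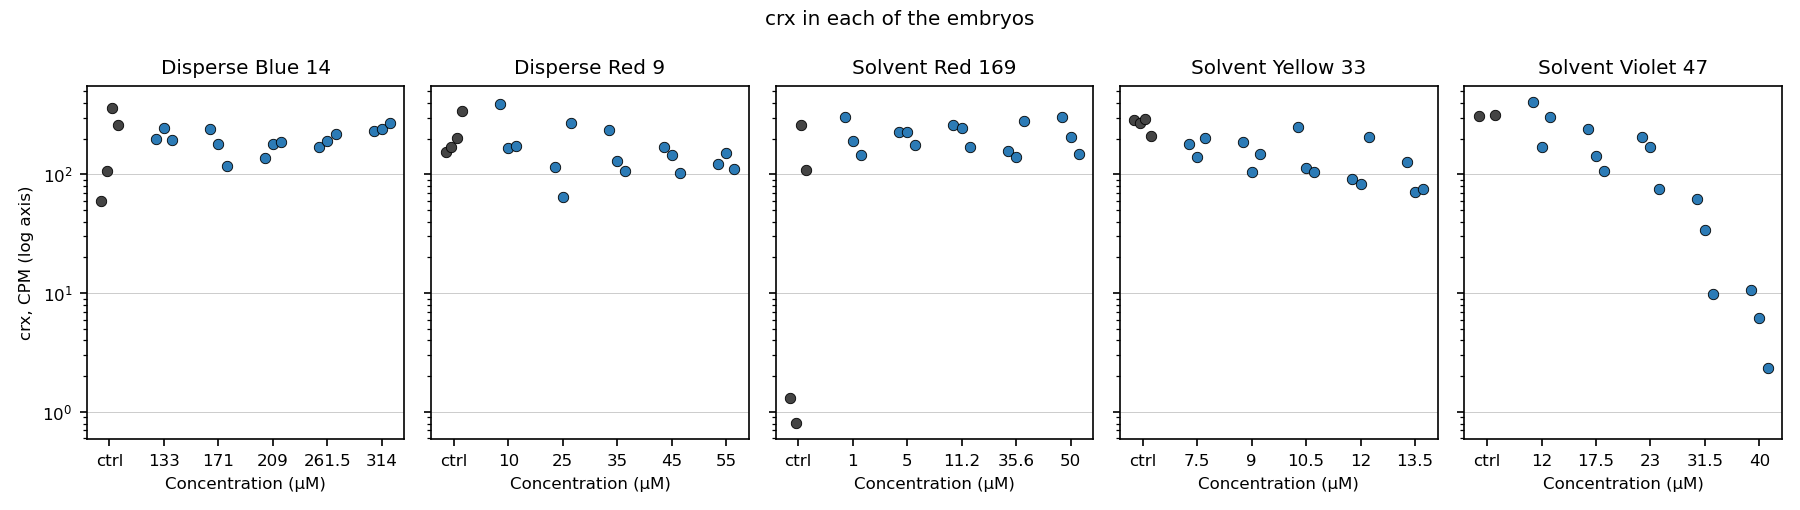
Level of crx (CPM, logarithmic axis) in each of the 93 embryos, by dye and concentration in μM, with controls in dark grey. The 2 Solvent Red 169 controls at 1.31 and 0.808 CPM lie below even the 40 μM Solvent Violet 47 embryos, and the other 16 controls lie between 59.3 and 364 CPM.

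Levels across all controls give the scale of the changes. In the 16 controls other than Solvent Red 169 controls 1 and 2, crx had a median of 258 CPM, CRX of 54.3 CPM and NR2E3 of 51.3 CPM. The ranges were 59.3 to 364 CPM for crx, 23.4 to 68.9 CPM for CRX and 35.0 to 63.9 CPM for NR2E3. Among the later genes rs1a ran from 0.875 to 37.3 CPM, rcvrna from 2.69 to 29.5 CPM and GNAT2 from 2.06 to 3.95 CPM. All 3 Solvent Violet 47 embryos at 40 μM lay below the range of these controls for crx, CRX and NR2E3.

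The second index carried by the 40 μM Solvent Violet 47 libraries was shared by the 31.5 μM libraries of this dye and by replicate 3 at 23 μM. In these crx was between 9.87 and 61.6 CPM at 31.5 μM and at 74.8 CPM at 23 μM, the lowest of its group. The index was also found in 5 embryos of Solvent Red 169, where crx was at 1.31 and 0.808 CPM in controls 1 and 2 and between 109 and 304 CPM in the 3 others. The part of the index in these levels was not tested.

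The second question was whether the members changed along the whole concentration series. A slope on concentration, scaled so that 1 unit runs from 0 to the highest concentration of the dye, was tested with all embryos of the dye in 1 fit. In Solvent Violet 47, 7 of 8 members had a falling slope, where 15.3% of all genes did, and in Solvent Yellow 33, 6 of 8 (3.18%). In Disperse Red 9, 5 of 8 members had a falling slope (2.88% of all genes), in Disperse Blue 14, 3 of 8 (4.25%), and in Solvent Red 169, 0 of 8 (0%), where the lowest unadjusted p was 0.0896, for GNAT2. Without the control embryos 0 slopes were called in Solvent Yellow 33, Disperse Red 9 and Disperse Blue 14, in a fit with fewer embryos. In Solvent Violet 47 that fit called 7 members lower and 1, GNAT2, higher. The fit without controls has no share of all genes beside it. With the controls, 29.7% of all genes had a called slope in this dye, in either direction.

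The structural genes and recoverin had called slopes in most dyes. The slope of rs1a was -6.41 ± 0.75 log2 units in Solvent Violet 47 (adjusted p = 1.46e-05), -3.61 ± 0.44 in Disperse Red 9 (adjusted p = 7.83e-05), -2.70 ± 0.47 in Solvent Yellow 33 (adjusted p = 0.00139) and -1.85 ± 0.51 in Disperse Blue 14 (adjusted p = 0.0313). The slope of rcvrna was -4.44 ± 0.43 (adjusted p = 5.13e-06), -1.18 ± 0.17 (adjusted p = 0.00061), -1.76 ± 0.29 (adjusted p = 0.000875) and -1.98 ± 0.37 (adjusted p = 0.00548) in the same order. These 2 genes and prph2lb were called in all 4 of these dyes. The series differ in their concentrations and spacing, so slopes are given side by side and are not compared between dyes.

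The transcription factors were called by slope in fewer dyes. The slope of crx was -6.11 ± 1.00 in Solvent Violet 47 (adjusted p = 0.000192) and -1.33 ± 0.28 in Solvent Yellow 33 (adjusted p = 0.00732), while -0.92 ± 0.34 in Disperse Red 9 was not called (adjusted p = 0.134). CRX was called in Solvent Violet 47 and Disperse Red 9, and NR2E3 in Solvent Violet 47 and Solvent Yellow 33. GNAT1 was called in Solvent Violet 47 (-2.03 ± 0.32, adjusted p = 0.000139), Disperse Red 9 (-1.44 ± 0.21, adjusted p = 0.000595) and Solvent Yellow 33 (-1.11 ± 0.31, adjusted p = 0.0446). The last of these calls held in 2 of 19 fits that left out 1 embryo, with an adjusted p of up to 0.195, and that of NR2E3 in the same dye held in 15 of 19. GNAT2 had 0 called slopes in the 5 dyes with the controls included, with GNAT2 at 0.64 ± 0.35 in Solvent Violet 47 (adjusted p = 0.176). Without the controls its rising slope in that dye was called, in a fit with no share of all genes beside it.

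**Figure D4:**
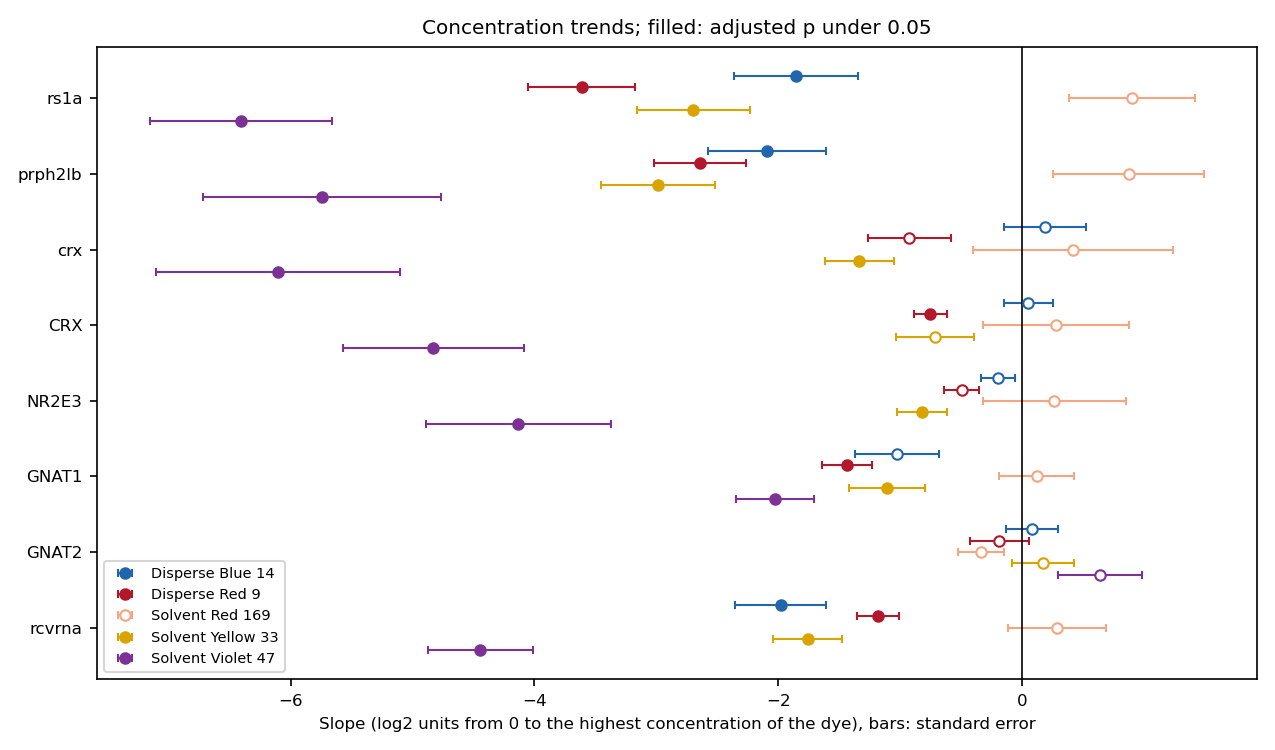
Fitted slope of each member (log2 change from 0 to the highest concentration if linear, with SE bars) in each dye. Filled points had an adjusted p under 0.05, as for rs1a at -6.41 in Solvent Violet 47 and -3.61 in Disperse Red 9, and the 8 Solvent Red 169 slopes are open.

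Other photoreceptor genes were counted from lists drawn up by function, at the same call rule. Like the members, the lists were chosen with earlier results of these data known. A listed symbol without a row was tried again without its paralogue ending, against symbols in capitals. This second way gave 12 of the 43 phototransduction rows and 13 of the 21 outer segment and visual cycle rows. Of the other phototransduction genes, 15 of 33 tested were lower and 0 higher at 40 μM Solvent Violet 47, where 8.91% of all genes were lower and 6.05% higher, with a median log2 fold change of -1.02 against 0.04 over all genes. Among them GNB3, a transducin beta subunit, went from a mean of 106 CPM in the controls to 0.566 CPM (log2 fold change -7.60 ± 1.03, adjusted p = 0.000554). PDE6G, an inhibitory subunit of the phosphodiesterase, fell by 2.90 ± 0.31 on the log2 scale (adjusted p = 0.000204), and sagb, an arrestin, fell by 3.79 ± 0.62 (adjusted p = 0.00124). By listed symbols alone, 6 of 22 phototransduction genes were lower in this group. The summed level of the whole list was 1296 and 1326 CPM in the lowest and highest control and 744 to 1137 CPM in the exposed embryos. Such a sum leans on a few rows of high level. In the Disperse Blue 14 controls gnb1a and gnb1b had means of 207 and 434 CPM, where the whole list summed to 765 to 1266 CPM.

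Outer segment and visual cycle genes were lower for 9 of 20 tested at 40 μM, with a median of -0.99, and for 5 of 7 by listed symbols alone. PROM1 (ENSDARG00000034007), a disc protein, fell by 3.37 ± 0.53 (adjusted p = 0.00106). RDH8, a retinol dehydrogenase, had at most 1 count in an exposed embryo against at least 54 in a control (adjusted p = 0.000952). Of the other photoreceptor transcription factors 4 of 9 were lower, with a median of -0.43. The cone factor six7 fell by 5.18 ± 0.73 (adjusted p = 0.000703) and NEUROD1, a neuronal bHLH factor, by 2.71 ± 0.40 (adjusted p = 0.000793).

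Lists for other eye cells were counted in the same 40 μM embryos, against the same 8.91% of all genes lower and 6.05% higher. Markers of other retinal neurons were lower for 8 of 14 tested (median -1.36), with VSX1, a bipolar cell factor, at -4.66 ± 0.52 (adjusted p = 0.000212) and PROX1 at -1.89 ± 0.20 (adjusted p = 0.000204). Their sum was 236 to 359 CPM against 920 to 1004 CPM in the controls. Retinal progenitor factors were lower for 6 of 12 and higher for 1 (median -0.68), and SIX6 fell by 1.12 ± 0.14 (adjusted p = 0.000399). Lens genes were lower for 2 of 16 and higher for 1 (median -0.70), with sums of 518 to 1150 CPM against 1283 to 1532 CPM. Pigment genes were lower for 1 of 7 (median -0.10). Both counts were near the background, but 14 of 16 lens genes had a negative log2 fold change. Pineal markers, from the other organ with photoreceptors, were called for 0 of 6 (median -0.05), with sums of 13.5 to 14.9 CPM against 16.6 to 17.7 CPM in the controls. The part of other cell types in the members' result was not tested.

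In the other dyes fewer listed genes were called. At 13.5 μM Solvent Yellow 33, 4 of 30 other phototransduction genes and 4 of 20 outer segment and visual cycle genes were lower (1.62% of all genes). By listed symbols alone these counts were 1 of 19 and 2 of 7. RCVRN, a recoverin row beside rcvrna, fell by 1.84 ± 0.41 (adjusted p = 0.0237), and PRPH2, a peripherin, fell by 2.52 ± 0.55 (adjusted p = 0.0221). At 45 μM Disperse Red 9, 4 of 31 phototransduction genes were lower (0.778% of all genes), and GNB3 fell by 2.71 ± 0.42 (adjusted p = 0.00675). By listed symbols alone 1 of 20 was lower. Outer segment and visual cycle genes were called for 0 of 20 in that group, and other photoreceptor transcription factors for 0 of 9. Markers of other retinal neurons were lower for 2 of 14 in that group and for 2 of 14 at 13.5 μM Solvent Yellow 33. In both groups these were BHLHE23 (-2.44 and -1.70) and VSX1 (-1.05 and -1.01). Retinal progenitor factors were lower for 0 of 12 and 1 of 12 in the same order, the latter rx3 (-1.35 ± 0.25). Lens genes were lower for 0 of 16 and 1 of 16, and pineal and pigment genes for 0. At 314 μM Disperse Blue 14, where 8% of all genes were lower and 7.66% higher, 10 of 34 phototransduction genes were lower and 4 higher, the latter near the background, with opn1lw2, a red cone opsin, at -3.09 ± 0.57 (adjusted p = 0.00908) and GUCA1A, a guanylate cyclase activator, at 1.55 ± 0.33 (adjusted p = 0.0137). In that group 3 of 20 outer segment and visual cycle genes were lower and 1 was higher. The higher gene was another PROM1 row (ENSDARG00000039966), at 1.40 ± 0.33 (adjusted p = 0.0208). There 8 of 16 lens genes and 4 of 7 pigment genes were lower as well, against controls that spread widely. Lens sums were 1415 to 6618 CPM in the controls and 1048 to 1385 CPM at 314 μM. Pigment sums were 421 to 1078 CPM and 231 to 348 CPM. At 5 μM Solvent Red 169, 1 of 31 phototransduction genes was lower and 2 were higher, near the 1.66% and 4.6% of all genes.

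Members other than GNAT2 also varied together across embryos, to differing degrees. Over all 93 embryos the log2 CPM of crx and NR2E3 had a Pearson r of 0.956, crx and CRX of 0.933, and rs1a and rcvrna of 0.867. GNAT1 had lower r with the transcription factors, 0.42 with CRX, 0.52 with NR2E3 and 0.55 with crx, and 0.71 with rs1a. GNAT2 had r between -0.33 and 0.09 with the other members. Of 15150 genes compared, those most like crx were six7 (r = 0.975, Spearman coefficient 0.931), NEUROD1 (0.973 and 0.956), LINGO1 (0.967 and 0.846), pax10 (0.962 and 0.863) and foxg1b (0.962 and 0.917). NR2E3 was most like six7 (0.969 and 0.780), VSX1 (0.964 and 0.832) and crx (0.956 and 0.785), and CRX most like VSX1 (0.963 and 0.867). These coefficients describe embryos that share dye groups and libraries. The high Solvent Violet 47 groups and 2 low Solvent Red 169 controls lie at the low end for crx, CRX, NR2E3, rs1a and rcvrna. GNAT2 was not low in those 2 controls.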

How the data were processed

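RNA from 93 single embryos was sequenced by the authors as 1 poly-A library per embryo. Per the study's methods and processing notes, the authors trimmed reads with Trim Galore 0.6.5, quantified transcripts with Salmon 1.1.0 against the zebrafish transcriptome (GRCz11), and summed them to genes with tximport. The deposited table holds estimated counts per gene (62.2% of values are whole within 1e-09), which were rounded. The deposited log2 CPM tables were not used because they pair no value with a gene. Counts ran from 9171265 to 48188027 per embryo, and this number limits precision.

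Each dye was fitted by itself in edgeR 4.0.16 (R 4.3.3) with TMM scaling and filterByExpr, by the quasi-likelihood F test of each concentration against the control of the dye, with Benjamini-Hochberg adjustment over all genes tested. Genes were called at a fold change over 1.5 and an adjusted p under 0.05. The standard error is the size of the log2 fold change divided by the root of F. CPM shown use TMM over all embryos, and a floor of 3 counts per library stood in for 0. Named genes were all members, up to 3 called genes with the lowest adjusted p per list and dye at the concentration with most calls, and the 5 genes most like the 3 members of highest mean CPM. The members and lists were chosen with earlier results of these data known. Symbols came from the gene name table, with 7 of 9 member symbols matched. A result that needs an item withheld for evaluation is not reported here. The scripts were tested on simulated data. Alternatives covered DESeq2 1.42.0, filters, pooled controls, the replicate block and leaving out embryos. No coordinates or sequences are given, since no genome of the files' build was used here.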

Additional observations from a re-analysis of the deposited data

Results flagged for a closer look

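Of 32 combinations of a member and a dye with 4 control embryos, checked for a control far from the others, 1 had one, where chance gives about 1 in 20. The prph2lb level in Disperse Red 9 control 3 was high at 2.71 CPM.

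The direction of rs1a and prph2lb at the highest concentration differed between dyes, with every embryo on 1 side of every control. For rs1a the log2 fold change was 1.64 in Solvent Red 169, against -3.57 in Disperse Red 9, -2.61 in Solvent Yellow 33 and -5.35 in Solvent Violet 47. For prph2lb it was 1.51 in Solvent Red 169, against -2.71 in Disperse Red 9 and -3.23 in Solvent Yellow 33, and it was at least 28.2-fold lower in Solvent Violet 47. These differences between dyes were not tested. Without Solvent Red 169 controls 1 and 2 the Solvent Red 169 values were 0.78 for rs1a and 0.61 for prph2lb, and the sign turned with pooled controls of all dyes: -0.95 and -0.40 with 16 controls, and -0.79 and -0.23 with 18.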

How the results depend on the processing

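Counts of called pairs moved with the controls, the tool and single embryos. The counts in these alternatives have no share of all genes beside them, so they cannot be read as particular to the members. Disperse Blue 14 had 2 called pairs, and gave 5 by DESeq2, 1 with at least 10 counts in every embryo, 0 with all 18 controls as 1 group, 5 with the 16 controls that leave out Solvent Red 169 controls 1 and 2, and 0 when only a concentration and its control were fitted. Disperse Red 9 had 9 and gave 0 with 18 controls. Solvent Red 169 had 0 and gave 0 with the replicate block, 18 controls, 16 controls, only a concentration and its control, and without its controls 1 and 2. Over all genes this dye gave 1 pair with 16 controls and 2 without its controls 1 and 2. Solvent Yellow 33 had 5 and gave 17 by DESeq2, 3 with the replicate block, 0 with 18 controls, 9 with 16 controls and 20 with only a concentration and its control. Solvent Violet 47 had 14 and gave 7 with 18 controls. Leaving out 1 embryo at a time gave 0 to 18 for Disperse Blue 14, 1 to 10 for Disperse Red 9, 0 to 6 for Solvent Red 169, 1 to 23 for Solvent Yellow 33 and 7 to 14 for Solvent Violet 47.

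Falling slopes gave 1 by rank and 0 without controls for Disperse Blue 14 (3), and 0 without controls for Disperse Red 9 (5) and Solvent Yellow 33 (6). Leaving out 1 embryo gave 1 to 4, 5 to 6 and 4 to 7 in that order, 7 to 7 for Solvent Violet 47 (7), and 0 to 0 for Solvent Red 169.

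Alternatives were run for the called pairs and slopes and for the 8 pairs at 50 μM Solvent Red 169, and among these signs turned only in the latter, which were not called. With 16 controls the log2 fold changes were -0.0747 for crx, -0.40 for prph2lb, -0.95 for rs1a, -0.39 for CRX, -0.79 for GNAT1, -0.0333 for NR2E3 and -0.56 for rcvrna. With 18 controls they were -0.23 for prph2lb, -0.79 for rs1a, -0.23 for CRX, -0.67 for GNAT1 and -0.41 for rcvrna. GNAT1 ran from -0.17 to 0.48 when 1 embryo was left out, and without controls 1 and 2 GNAT1 was -0.33, NR2E3 -0.16 and rcvrna -0.35. The cause was not tested.

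Embryos with the same replicate number did not deviate together (correlations -0.66 to 0.53, median -0.02), so the numbers were not taken as pairs. The fit restricted to embryos sharing a second index with a control gave no value for the called pairs. The pooled controls and the fit without Solvent Red 169 controls 1 and 2 were chosen after seeing the data, except the group of 18.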
